A study of Mus musculus with 4 samples.

Results

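Cst7 and the cysteine cathepsin system were followed in 4 bulk RNA-seq libraries of CD11b+ microglia, immune cells that reside in brain tissue, which were isolated by magnetic sorting from 10-month-old mice. The 10 genes were taken by symbol (2 cystatins, 7 cysteine proteases and the aspartic protease Ctsd) out of 49993 genes with a count. The set was chosen by the low level of Cst7 in AD/KO against AD in these same libraries, so that difference is given as a description, without a test. APP/PS1, transgenes under which amyloid accumulates in the brain, was present in both groups. The AD group had an intact asrij gene (APP/PS1+ asrij+/+, n = 2 libraries) and the AD/KO group carried a constitutive deletion of asrij (APP/PS1+ asrij-/-, n = 2 libraries). Asrij is the mouse gene Ociad1. The deletion is not limited to microglia, and the labels do not say whether a library pools animals or whether replicates came from separate animals. AD replicates 1 and 2 held 6 and 1391 reads of Xist, a transcript of female cells, so they were not repeats of the same material. For AD/KO replicates 1 and 2 (15 and 3 reads) this is not known. The p-values therefore measure the spread between these libraries, which may be technical in AD/KO.

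Cysteine cathepsins are papain-like proteases of the endosome and lysosome that degrade engulfed material and trim other proteins. Cystatins are small proteins that sit in the active site of such proteases and block them. Most cystatins are secreted, whereas cystatin F, the product of Cst7, is made by immune cells and carried to the lysosome, where its processed form blocks cathepsin C and also acts on cathepsins H and L and on legumain. Cst7 is a known marker of the state that microglia take up around amyloid plaques.

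The promoters of an inhibitor and of its targets may be read side by side, and 4 are shown: that of Cst7, that of Ctsc, its best known target, and those of Ctsd and Ctss, proteases with high transcript levels here. They cover 250 bases before to 50 bases after the start site in RefSeq for GRCm38.p6, at chr2:150570165-150570464 (Cst7, plus strand), chr7:88277835-88278134 (Ctsc, plus strand), chr7:142387778-142388077 (Ctsd, minus strand) and chr3:95526536-95526835 (Ctss, plus strand). Capitals mark matches, on either strand, to the E-box CACGTG that TFEB and related lysosomal regulators bind, to GAGGAAGT, a core of the myeloid factor PU.1, or to TTNNGNAA, a loose core of C/EBP factors.
Cst7: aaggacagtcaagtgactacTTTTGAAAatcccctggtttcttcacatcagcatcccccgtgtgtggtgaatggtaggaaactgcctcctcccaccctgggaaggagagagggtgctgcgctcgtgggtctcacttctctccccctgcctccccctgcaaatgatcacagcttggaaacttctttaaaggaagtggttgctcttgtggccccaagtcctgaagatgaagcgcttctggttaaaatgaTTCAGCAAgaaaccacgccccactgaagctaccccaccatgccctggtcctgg
Ctsc: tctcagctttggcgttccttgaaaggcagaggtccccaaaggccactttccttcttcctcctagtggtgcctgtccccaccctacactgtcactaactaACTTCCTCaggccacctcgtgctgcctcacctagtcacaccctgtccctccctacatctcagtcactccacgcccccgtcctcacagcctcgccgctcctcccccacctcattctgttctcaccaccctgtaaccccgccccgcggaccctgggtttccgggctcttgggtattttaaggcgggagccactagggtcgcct
Ctsd: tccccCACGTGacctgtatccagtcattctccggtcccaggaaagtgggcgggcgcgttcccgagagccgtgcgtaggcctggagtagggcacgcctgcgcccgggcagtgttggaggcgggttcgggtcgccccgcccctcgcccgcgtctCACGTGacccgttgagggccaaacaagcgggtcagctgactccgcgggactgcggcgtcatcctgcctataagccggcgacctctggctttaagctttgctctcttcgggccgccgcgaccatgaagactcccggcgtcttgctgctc
Ctss: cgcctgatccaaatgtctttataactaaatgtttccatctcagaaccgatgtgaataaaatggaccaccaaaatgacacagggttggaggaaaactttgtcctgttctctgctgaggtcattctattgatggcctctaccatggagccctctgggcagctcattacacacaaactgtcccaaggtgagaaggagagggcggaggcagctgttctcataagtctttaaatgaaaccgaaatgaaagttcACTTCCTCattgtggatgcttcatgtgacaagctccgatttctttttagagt

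The Ctsd window held 2 E-boxes, beginning at positions -245 and -98 from the start site, and the Cst7 window held none. The Ctsc and Ctss windows each held 1 PU.1 core on the opposite strand (ACTTCCTC), at positions -151 and -2. The Cst7 window held 2 C/EBP cores, at positions -230 (TTTTGAAA) and -3 (TTCAGCAA). Of the 8 genes with a promoter in the RefSeq table, 3 held an E-box (Ctsd, Ctsl and 1 start site of Lgmn), against 8.09% of all 27025 genes. A PU.1 core was in 2 of the 8 (Ctsc and Ctss) against 3.69% of genes, and a C/EBP core in 2 (Cst7 and Ctsl) against 44.1%. These are exact matches of letters and show no binding. Near matches were not counted, so a window without a core may still hold a similar stretch.

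The libraries held from 13102622 to 19810076 counts, of which the 10 genes took 1.51% and 1.3% in AD replicates 1 and 2, and 1.29% and 0.480% in AD/KO replicates 1 and 2. All 18 homeostatic microglia markers were detected in the series, with summed levels of 15440 to 23090 CPM (counts scaled to library size) in AD and 6744 to 23018 in AD/KO, lowest in AD/KO replicate 2. The deleted gene Ociad1 stood at 50.2 and 63.4 CPM in AD and at 38.9 and 32.1 CPM in AD/KO, so its transcript was not lost. Which part of the gene the allele lacks is not stated in the labels, and AD/KO therefore means the libraries labelled AD/KO throughout. AD replicate 2 stood apart by its neutrophil markers (5107 CPM summed, against 406 to 615 in the other libraries) and by 1391 reads of Xist, which marks female cells (3 to 15 in the others). AD/KO replicate 2 stood apart by its astrocyte markers (12331 CPM summed, against 1961 to 4828) and neuron markers (3739 CPM, against 470 to 1467). Astrocyte markers were also higher in AD/KO replicate 1 (4828 CPM summed) than in AD (1961 and 4650 CPM), by a narrow margin over AD replicate 2. Both AD/KO values were above both AD values for 8 of the 9 astrocyte markers, against 20.3% of all genes tested. For oligodendrocytes this was so for 4 of 7 markers, and 2 of the 7 had log2 fold changes below 0. Their summed levels were 1629 and 2596 CPM in AD and 3900 and 8522 CPM in AD/KO. For neurons, both AD/KO values were above both AD values for 2 of 10 markers. The part of these cells in the results was not tested. In such bulk samples, fewer cells of a type and less RNA per cell cannot be told apart.

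Cst7 was nearly lost from the AD/KO libraries, while the genes of the 4 targets of cystatin F named above were all still detected there. The lowest value among these targets was 52.3 CPM, for Ctsh in AD/KO replicate 2. Cst7, a protein-coding gene on chromosome 2 (150570415 to 150578944, gene ID 13011), was counted with 953 and 1494 reads in AD and 65 and 33 in AD/KO. In CPM it stood at 69.2 and 91.8 in AD replicates 1 and 2 and at 3.39 and 1.79 in AD/KO replicates 1 and 2. The AD/KO mean was 3.22% of the AD mean, a 31.1-fold difference of the means. Both AD/KO libraries lay far below both AD libraries, and the highest AD/KO value was in the replicate with the most homeostatic microglial RNA. The fitted log2 fold change (AD/KO minus AD) was -4.95, with 9 of the 21439 genes tested lower. Leaving out a library gave from -5.43 to -4.56.

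**Figure D1:**
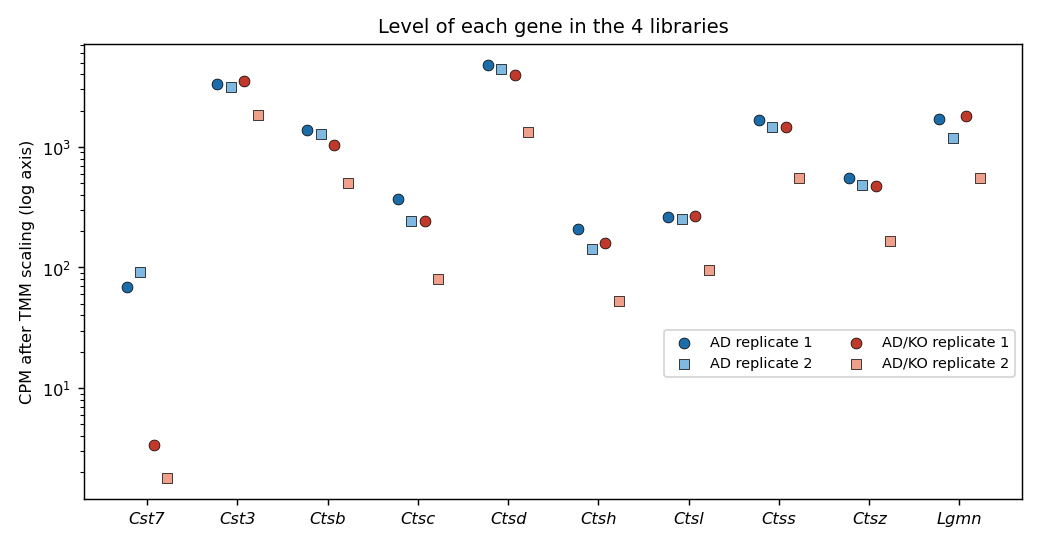
Level of each of the 10 genes (CPM after TMM scaling, log axis) in the 2 AD and 2 AD/KO libraries, 1 point per library. Cst7 stood at 69.2 and 91.8 CPM in AD and at 3.39 and 1.79 CPM in AD/KO, whereas for the other genes AD/KO replicate 1 lay near the AD libraries and AD/KO replicate 2 was the lowest.

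Markers of other immune cells moved with Cst7 in part. The 6 monocyte markers summed to 125 and 453 CPM in AD and to 63.7 and 87.1 CPM in AD/KO, and both AD/KO values were under both AD values for 4 of the 6, against 21.7% of all genes tested. Among them, Ccr2, the chemokine receptor of inflammatory monocytes, stood at 39.8 and 40 CPM in AD and at 10.3 and 6.13 CPM in AD/KO. The 7 markers of border-associated macrophages, 1 of them shared with the monocyte list, summed to 133 and 100 CPM in AD and to 69.1 and 59.5 CPM in AD/KO, and groups were apart in this direction for 5 of the 7. The 10 neutrophil markers were high in AD replicate 2 alone, and groups were apart for 1 of them, Cxcr2. The part of these cells in the Cst7 difference was not tested. T and NK cell markers, of cells that also make cystatin F, summed to 0.923 to 4.06 CPM, with Trbc2 at 0 in all 4 libraries. The 6 mast cell markers summed to 2.1 and 10.6 CPM in AD and to 7.14 and 21.2 CPM in AD/KO, nearly all of it from Kit, which other cells also express (24 and 166 reads in AD, 134 and 390 in AD/KO). The defining mast cell marker Fcer1a was at 0 in all 4 libraries, and Cpa3 had 0 to 3 reads.

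A ratio within a library does not depend on how libraries are scaled to each other. Per 1000 reads of the 7 cysteine protease genes together (Ctsb, Ctsc, Ctsh, Ctsl, Ctss, Ctsz and Lgmn), AD replicate 1 held 11.2 Cst7 reads (exact 95% interval 10.5 to 12) and AD replicate 2 held 18.2 (17.2 to 19.1). AD/KO replicate 1 held 0.623 (0.480 to 0.794) and AD/KO replicate 2 held 0.894 (0.616 to 1.26). These intervals were computed within each library, so they cover counting error only. As reads carry no molecular identifiers, the intervals may be too narrow even for that error. The lowest AD value was 12.5-fold above the highest AD/KO value, and the means (14.7 ± 4.91 and 0.758 ± 0.192, SD, n = 2 each) differed 19.4-fold. AD/KO replicate 2, with the fewest protease reads, did not have the lowest ratio.

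**Figure D2:**
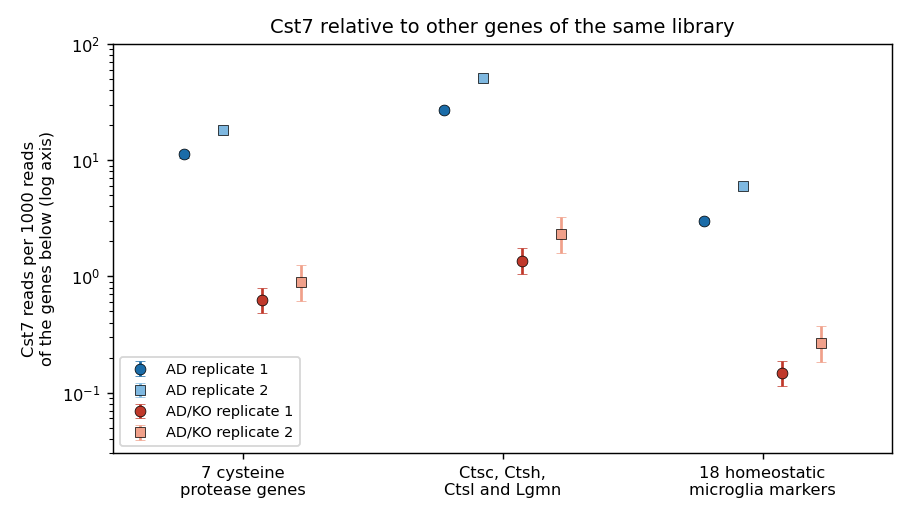
Cst7 reads per 1000 reads of 3 sets of genes in the same library (log axis), with exact 95% intervals that cover counting error only, 1 point per library. For the 7 cysteine protease genes the AD libraries stand at 11.2 and 18.2 and the AD/KO libraries at 0.623 and 0.894, and the groups are apart for each set.

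Against single proteases the picture was alike in size. Per 1000 reads of Ctsc, the gene of cathepsin C, which activates granule serine proteases, there were 188 and 374 Cst7 reads in AD and 13.8 and 22.2 in AD/KO. Per 1000 reads of Lgmn, the gene of legumain, which cuts after asparagine and matures other cathepsins, there were 40.4 and 77.8 in AD and 1.87 and 3.25 in AD/KO. Over the 9 other genes taken one at a time, the lowest AD ratio stood from 8.47-fold (Ctsc) to 21.3-fold (Cst3) above the highest AD/KO ratio. In AD, replicate 2 had the higher Cst7 level and the lower level of each of the 9 other genes, so that the ratios of the AD libraries differed most for Ctsc (281 ± 132 Cst7 reads per 1000 Ctsc reads, SD, n = 2), Ctsh and Lgmn.

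The other cystatin gene did not share this pattern. Cst3 (gene ID 13010, chromosome 2, 148871722 to 148875512) encodes cystatin C, a secreted inhibitor of cysteine cathepsins made by microglia and astrocytes. It stood at 3332 and 3149 CPM in AD and at 3544 and 1834 CPM in AD/KO. AD/KO replicate 1 was the highest of the 4 libraries and AD/KO replicate 2 the lowest, so the groups overlapped. The log2 fold change was -0.27 (95% interval -2.18 to 1.64), with an adjusted p of 0.890 by the edgeR quasi-likelihood test, Benjamini-Hochberg adjusted. Per 1000 Cst3 reads, Cst7 had 20.8 and 29.2 reads in AD and 0.956 and 0.976 in AD/KO, the closest pair of AD/KO values among the ratios.

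Among the known targets of cystatin F, Ctsc (gene ID 13032, chromosome 7, 88278024 to 88315861) stood at 368 and 245 CPM in AD and at 245 and 80.8 CPM in AD/KO. AD replicate 2 and AD/KO replicate 1 were at nearly the same level, and AD/KO replicate 2 was the low one. Ctsh (gene ID 13036, chromosome 9, 90054267 to 90076095), an aminopeptidase, stood at 208 and 142 CPM in AD and at 159 and 52.3 CPM in AD/KO. Ctsl (gene ID 13039, chromosome 13, 64361890 to 64370772), a potent endopeptidase, stood at 263 and 253 CPM in AD and at 266 and 95.5 CPM in AD/KO. Its AD/KO replicate 1 was the highest of the 4 libraries. Lgmn (gene ID 19141, chromosome 12, 102394082 to 102439728) stood at 1711 and 1180 CPM in AD and at 1815 and 551 CPM in AD/KO, again with AD/KO replicate 1 highest and replicate 2 lowest.

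The remaining cysteine cathepsins followed the same course over the libraries. Ctss (gene ID 13040, chromosome 3, 95526786 to 95556405), the protease that trims the invariant chain of class II molecules, stood at 1682 and 1460 CPM in AD and at 1454 and 557 CPM in AD/KO. Ctsb (gene ID 13030, chromosome 14, 63122462 to 63145923), a broad lysosomal endo- and exopeptidase, stood at 1376 and 1290 CPM in AD and at 1028 and 500 CPM in AD/KO. Ctsz (gene ID 64138, chromosome 2, 174427494 to 174439039), a carboxypeptidase, stood at 556 and 486 CPM in AD and at 476 and 166 CPM in AD/KO. For these 3 genes both AD/KO values were under both AD values, for Ctss and Ctsz by a narrow margin in replicate 1. Ctsd (gene ID 13033, chromosome 7, 142375910 to 142387827), the aspartic protease that cystatins do not block, stood at 4803 and 4400 CPM in AD and at 3942 and 1327 CPM in AD/KO.

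By the edgeR quasi-likelihood test, Benjamini-Hochberg adjusted over 21439 genes, 0 of the 9 genes other than Cst7 passed the threshold of 0.05 (adjusted p from 0.680 for Ctsc to 0.890 for Cst3), as did 0 of all genes tested (0%). At an unadjusted p under 0.05 there were 0 of the 9 and 1072 of all genes, and DESeq2 also called 0 of the 9, against 0.440% of all genes. All 9 fitted log2 fold changes were below 0, from -0.91 (Ctsc) to -0.27 (Cst3), with a median of -0.70 against -0.05 over all genes tested, of which 52.8% were below 0. Both AD/KO values were under both AD values in 5 of the 9 (Ctsb, Ctsc, Ctsd, Ctss and Ctsz), against 21.7% of all genes. Since these genes come from the contrast in which Cst7 was picked, nothing is read from these shares.

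The intervals of the 9 genes were wide. For Ctsc the fitted AD/KO level was 53.1% of AD, with a 95% interval from 17.3% to 163%, and for Ctsd it was 57.3% (11.8% to 277%). A lower level by a factor of several, or no difference at all, was therefore within the intervals of each of the 9. The distance between Cst7 and the median of the 9 was -4.25 on the log2 scale.

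**Figure D3:**
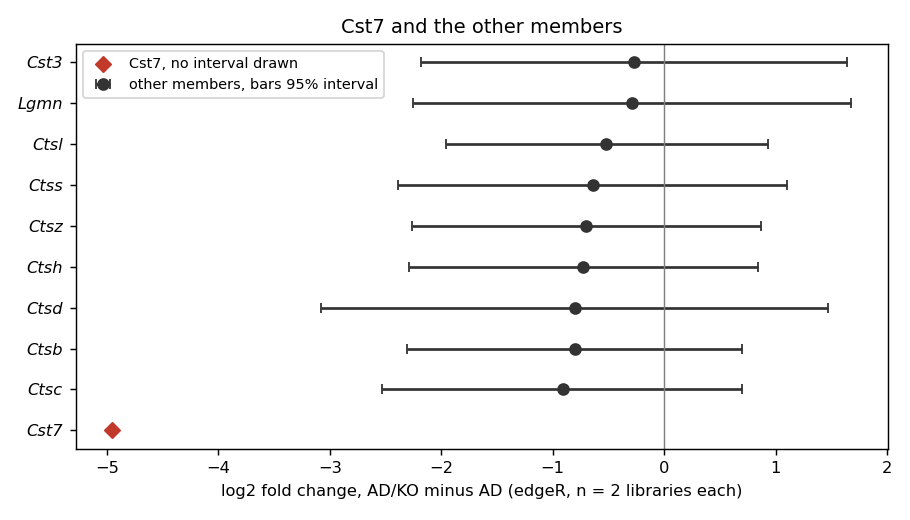
Fitted log2 fold change of each gene (AD/KO minus AD, n = 2 libraries each) with the 95% interval from edgeR's quasi-likelihood fit for the 9 genes other than Cst7. The 9 lie from -0.91 to -0.27 with intervals that span 0, and Cst7, drawn without an interval because it was chosen for this difference, lies at -4.95.

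The spread of the 9 genes lay between the AD/KO replicates. AD/KO replicate 1 exceeded AD/KO replicate 2 from 1.93-fold (Cst3) to 3.30-fold (Lgmn), whereas AD replicate 1 exceeded AD replicate 2 from 1.04-fold (Ctsl) to 1.5-fold (Ctsc). For Cst7 the AD/KO replicates differed 1.89-fold. Without AD/KO replicate 2, the median log2 fold change of the 9 was -0.12, with Ctsl, Lgmn and Cst3 above 0. Without AD/KO replicate 1 it was -1.44. The 9 genes therefore take their size from AD/KO replicate 2, the library with the lowest homeostatic microglia markers and the highest astrocyte and neuron markers. The part of these other cells in the result was not tested.

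**Figure D4:**
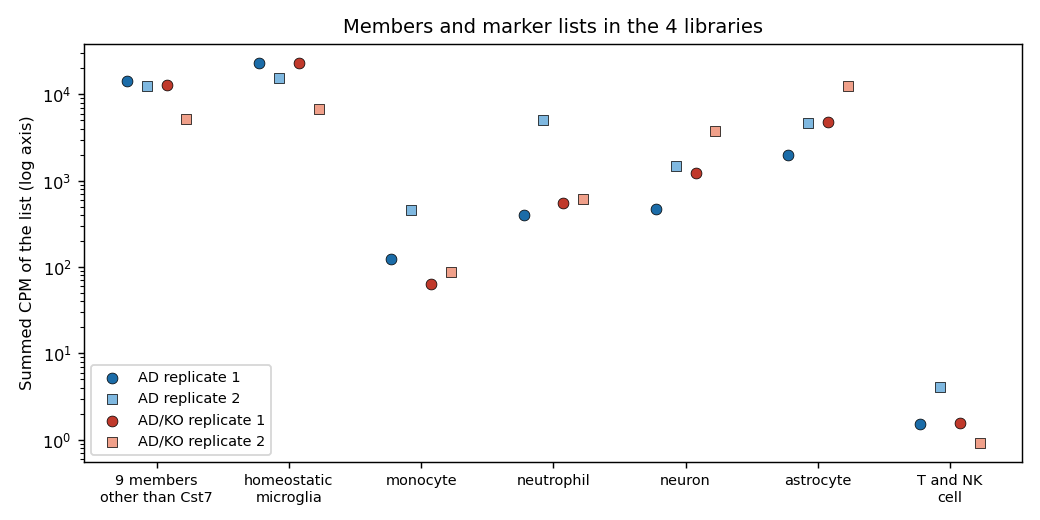
Summed level (CPM, log axis) of the 9 genes other than Cst7 and of marker lists of 6 cell types, 1 point per library. AD/KO replicate 2 is lowest for the 9 genes and for homeostatic microglia (6744 CPM) and highest for neurons (3739 CPM) and astrocytes (12331 CPM), and AD replicate 2 is highest for neutrophils (5107 CPM).

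Set against the reads of the 18 homeostatic microglia markers in the same library, the AD/KO replicates drew closer together for each of the proteases. The AD replicates drew closer for Ctsc, Ctsh and Lgmn, but moved apart for Ctsb, Ctsd, Ctsl, Ctss and Ctsz. Per 1000 reads of these markers, AD replicates 1 and 2 had 59.6 and 83.5 reads of Ctsb, and 11.4 and 16.4 of Ctsl. Ctsc had 16 and 15.9 reads in AD and 10.6 and 12 in AD/KO. Ctsh had 9.02 and 9.19 in AD and 6.91 and 7.76 in AD/KO, and Ctsd had 208 and 285 in AD and 171 and 197 in AD/KO. For these 3 genes, both AD/KO values were under both AD values by this measure, as was so for 7.77% of all genes tested. The other 6 included Lgmn, with 74.1 and 76.4 in AD and 78.9 and 81.7 in AD/KO, where both AD/KO libraries lay slightly above both AD libraries. In Ctsb, Ctsl, Ctss, Ctsz and Cst3 the groups overlapped. Cst7 had 3 and 5.95 in AD and 0.147 and 0.266 in AD/KO. With the libraries scaled to these markers in the edgeR fit, Ctsc stood at -0.48, Lgmn at 0.11 and Cst3 at 0.31 on the log2 scale, and 0 of the 9 passed the threshold.

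The make-up of the cysteine protease pool was compared between the libraries. Of the reads of the 7 genes, Ctss took 27.3% and 28.9% in AD and 26.7% and 27.8% in AD/KO. Lgmn took 27.7% and 23.3% in AD and 33.3% and 27.5% in AD/KO, the widest range of the 7. Ctsb took 18.9% to 25.5%, with overlap between the groups. Ctsc took 5.98% and 4.85% in AD and 4.50% and 4.04% in AD/KO, and Ctsz took 9.02% and 9.62% against 8.74% and 8.31%. Groups were apart for these 2 genes, both lower in AD/KO, and overlapped for the other 5. By CPM, groups were apart in this direction for 21.7% of all genes tested, and nothing is read from the count of 2.

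**Figure D5:**
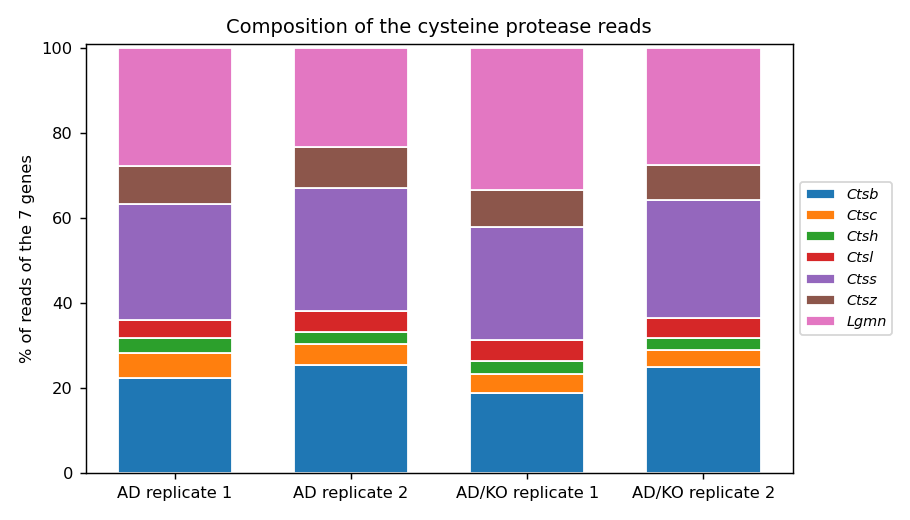
Share of each gene (percent) in the reads of the 7 cysteine protease genes, 1 bar per library. Lgmn, Ctss and Ctsb take most of the reads in every library, and the share of Ctsc lies between 4.04% and 5.98%.

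Levels were compared between genes per length, as CPM per kilobase of the longest curated RefSeq transcript in GENCODE M21. From high to low the order of the 9 was Cst3, Ctsd, Ctss, Lgmn, Ctsz, Ctsb, Ctsl, Ctsh and Ctsc, and it was the same in 4 of 4 libraries. In AD the level per kilobase was 3768 ± 151 for Cst3, 2163 ± 134 for Ctsd and 1159 ± 116 for Ctss (SD, n = 2), each apart from its neighbours. Further down, neighbours in the order overlapped among the 4 lowest, with 131 ± 3.66 for Ctsl, 108 ± 29.0 for Ctsh, 95.3 ± 27.0 for Ctsc and 81.6 ± 16.3 for Cst7. In AD, Cst7 was thus about level with its target Ctsc per kilobase, with 0.613 and 1.22 of the Ctsc level in replicates 1 and 2. In AD/KO it was at 0.0451 and 0.0724 of the Ctsc level. Ctsd, Ctss and Lgmn remained above Cst7 in every library, and Lgmn was the most abundant of the 4 targets named above.

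The rest of the family gave few signals. Of 18 other cathepsin-like genes listed, 7 were tested. Of these 7, 6 had log2 fold changes below 0, against 52.8% of all genes tested. Their median was -0.24, against -0.05 over all genes tested, and 0 passed the threshold, as over all genes. The 9 of the 18 at 0 in all 4 libraries were the genes Ctsj, Ctsm, Ctsq, Ctsr, Ctsll3, Cts3, Cts6, Cts7 and Cts8, which belong to the placental cathepsins of rodents. Ctsa, a serine carboxypeptidase that protects lysosomal sialidase, stood at 560 and 453 CPM in AD and at 480 and 178 CPM in AD/KO. Ctsf and Ctso, other cysteine cathepsins, had log2 fold changes of 0.09 (95% interval -0.88 to 1.07) and -0.05 (-0.75 to 0.65). Ctsw, Ctsk and Tinagl1 stood below 10 CPM in every library, and their groups overlapped.

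Ctse, an intracellular aspartic protease of immune cells, was the family member with the lowest log2 fold change after Cst7. It stood at 7.84 and 18.1 CPM in AD and at 2.24 and 3.04 CPM in AD/KO, so both AD/KO libraries were below both AD libraries. The log2 fold change was -2.29 (95% interval -3.80 to -0.79) and did not pass over all genes (adjusted p of 0.680, edgeR quasi-likelihood with Benjamini-Hochberg). It was highest in AD replicate 2, the library with the most neutrophil markers, and the part of those cells was not tested. Of 19 other cystatin genes, 2 were tested (Cstb and Kng2), and 9 were at 0 in all 4 libraries. Cstb, the cytosolic cystatin B, stood at 7.69 and 7.19 CPM in AD and at 6.93 and 4.45 CPM in AD/KO, with a fitted difference of -0.39 on the log2 scale (95% interval -1.54 to 0.77).

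Genes that act beside the cathepsins were taken as lists. Over all genes tested, 52.8% had log2 fold changes below 0, with a median of -0.05 and 0 past the threshold. Of the 14 genes for delivery of enzymes to the lysosome, 12 were below 0, with a median of -0.26 and 0 past the threshold. They ran from Mitf, a regulator of lysosomal genes, at -0.89 to Gnptg, a subunit of the enzyme that adds the mannose 6-phosphate tag, at 0.72. All 9 genes of class II antigen processing, in which cathepsin S acts, were below 0, with a median of -0.70 and 0 past the threshold. Both AD/KO values were under both AD values in 6 of the 9 and in 2 of the 14 delivery genes, against 21.7% of all genes tested. The lists were chosen with earlier results of these data known, so nothing is read from these counts. H2-Ab1, a class II chain, stood at 51.7 and 25.3 CPM in AD and at 19.3 and 7.81 CPM in AD/KO, while Ifi30, a lysosomal thiol reductase, overlapped at 47.5 and 39.2 against 46.7 and 19.3 CPM. The granule serine proteases, which cathepsin C activates, fell under the count filter in 9 of 9 genes, with summed levels of 0.705 to 1.45 CPM in 3 libraries and 16.5 CPM in AD replicate 2. DESeq2, run without that filter, called 1 of the 9, against 0.440% of all genes. Ctsg, another granule protease, had 12 reads in AD replicate 2 and 0 or 1 in the others.

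Cst7 was compared with genes of other kinds by its profile over the libraries. Over 28 other genes of plaque-associated microglia, the median log2 fold change was -1.47, with 26 below 0 and 0 past the threshold in the edgeR fit. An unadjusted edgeR p under 0.05 was seen in 16 of the 28, against 1072 of all 21439 genes tested. DESeq2 called 8 of the 28, against 0.440% of all genes. Both AD/KO values were under both AD values in 23 of the 28, against 21.7% of all genes tested. The list was chosen with earlier results of these data known, so nothing is read from these shares. The 28 ran from Clec7a, a receptor for fungal glucans, at -3.03 to Fth1, the ferritin heavy chain, at 1.03. By the distance between centred log2 CPM profiles over the 4 libraries, the 5 nearest of 13769 genes with a mean of at least 5 CPM were Gm27008 (distance 1.03), Adgrg5 (1.53), Knl1 (1.53), Itgax (1.85) and Lpl (1.94). Gm27008, a long non-coding RNA, stood at 15.9 and 14.6 CPM in AD and at 1.20 and 0.597 CPM in AD/KO. Adgrg5, an adhesion G protein-coupled receptor, stood at 17.1 and 7.93 against 0.417 and 0 CPM, and Knl1, a kinetochore scaffold, at 10.0 and 16.3 against 1.15 and 0.923 CPM. Itgax, the integrin CD11c, stood at 68.4 and 70.1 against 12.7 and 4.56 CPM, and Lpl, lipoprotein lipase, at 83.8 and 80.8 against 12.5 and 7.81 CPM. The nearest of the 9 other genes was Ctsc, at rank 545 with a distance of 3.95, and the farthest was Cst3, at rank 3782. These distances rest on 4 libraries and follow mostly the size of the difference between the groups, by which Cst7 was chosen. The ranks were thus largely set in advance, and nothing is read from them.

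Some of these genes share sequence with others. Ctsb shares 774 bases of exon with Fdft1 on the other strand, 16.3% of its exons, and Fdft1 stood at 20.1 to 38.9 CPM. Ctsl shares exon bases with the antisense gene Gm47123 (1742 bases over all isoforms), and 395 bases with Gm49230, a processed pseudogene on its own strand that matches it at 100% identity, and neither of them was analysed here. Shorter stretches of Ctsl, of at most 191 bases, had near-identical matches in transcripts of other genes. Ctsd shares 670 bases with Gm49369 on the same strand, also not analysed here. Cst7, Cst3, Ctsc, Ctsh, Ctss and Lgmn shared no exon bases with another annotated gene of GENCODE M21, and no near-identical transcript was found for them.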

How the data were processed

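For each library the authors deposited raw counts, as whole numbers of reads for each gene symbol. Per the submitters' processing notes, HISAT2, featureCounts, DESeq2 1.30.0 and the build mm10 were used. The use of strand and the annotation are not given in the sources used here. Per library, 11 broken lines without a count were left out.

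Counts were tested with edgeR 4.0.16 (R 4.3.3): filterByExpr with a minimum count of 10 and a total of 15, TMM scaling, quasi-likelihood F-test of AD/KO against AD on 4 libraries, Benjamini-Hochberg over 21439 genes. The biological coefficient of variation was 44.5%. Intervals are log2 fold change ± the t quantile times its standard error, obtained from the F statistic. Log2 CPM used a prior count of 2. The procedure was also run on simulated independent counts with a common dispersion. These lacked the differences in cell markers between replicates seen here, so that run does not measure error rates in these libraries. Near-identical transcripts were searched with BLAST 2.17.0 (95% identity, 100 bases). Alternatives were DESeq2 1.42.0, its size factors, 2 other filters, scaling to homeostatic markers, the replicate block, other denominators and leaving out each library. All 10 genes, the 5 profile neighbours of Cst7 and the lowest and highest gene of each list with a mean of at least 5 CPM were named, with 8 further family members; Ccr2, Cxcr2, Trbc2, Fcer1a, Cpa3, Kit, Kng2 and Tinagl1 were named after their values were seen. Members and lists were chosen with earlier results of these data known.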

Additional observations from a re-analysis of the deposited data

How the results depend on the processing

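By edgeR, 0 genes passed the threshold (1072 at an unadjusted p under 0.05), 88 with DESeq2 (38 higher, 50 lower), and 0 with DESeq2 size factors (1100 unadjusted), no filter (1548), a mean of 1 CPM (878) and scaling to homeostatic markers (881). Leaving out each library gave from 0 to 524 (48 without AD replicate 1, 524 without AD replicate 2). Over the same fits without 1 library, the median of the 9 genes other than Cst7 ran from -1.44 (without AD/KO replicate 1) to -0.12 (without AD/KO replicate 2), and Cst7 from -5.43 to -4.56. Scaling to homeostatic markers moved the median of all genes from -0.05 to 0.75, Cst7 to -4.43 and the median of the 9 to -0.25. Of 90 values of single genes, 6 changed direction: Cst3 (0.31) and Lgmn (0.11) with that scaling, Lgmn (0.00) without AD replicate 1, and the other 3 without AD/KO replicate 2. With 1 library left out, Cst3 ran from -0.77 to 0.14, Ctsl from -1.38 to 0.05 and Lgmn from -1.34 to 0.34, each lowest without AD/KO replicate 1 and highest without AD/KO replicate 2. The cause was not tested. The log2 ratio of Cst7 to the 7 protease genes (-4.28) ran from -4.58 to -3.89 without 1 library and from -4.44 to -4.16 with the 3 other denominators.

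By their labels, same-numbered libraries of the 2 groups share only a number, and no pairing is stated. Their deviations from the group means had a correlation of 0.68 over genes. With the replicate block, 4333 of all 21439 genes tested passed (2878 higher, 1455 lower), and the median of the 9 was -0.88. Of the 9, Ctsc alone passed (-1.09, adjusted p of 0.0325 by the edgeR quasi-likelihood test, Benjamini-Hochberg adjusted). Without the block the adjusted p of Ctsc was 0.680, and it was 0.665 to 0.915 under the other alternatives on all 4 libraries. With so many genes passing under the block, nothing is read from this 1 of the 9. Cst7 was at -4.96.

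Depth did not limit the members, whose lowest count was 33 (Cst7 in AD/KO replicate 2). The 2 libraries per group did limit the width of the intervals.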
